A study of Mus musculus with 8 samples.

Results

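The subject is 10 autophagy and mitophagy genes in sorted Ly6Chi monocytes, blood-derived inflammatory cells, of mouse livers injured by an acetaminophen overdose. The genes were chosen by symbol, and all 10 of 10 are among the 15336 genes of the deposited count table and among the 12178 genes that passed the filter on low counts. They are the cargo receptor gene Sqstm1, the mitochondrial receptor genes Bnip3 and Bnip3l, the ATG8 family genes Map1lc3a, Map1lc3b, Gabarap and Gabarapl1, and the Becn1, Ulk1 and Wipi1 genes of autophagosome formation. Each of 8 libraries came from 1 male C57BL/6 mouse, 8 weeks old, fasted for 12 h and given 300 mg/kg acetaminophen into the peritoneum 24 h before the sort. The 4 control mice were Commd10fl/fl (replicates 2, 3, 10 and 11). The 4 mice called deficient here, of the genotype LysMDCommd10 (replicates 5, 6, 12 and 13), carry the same floxed alleles and lack COMMD10 in myeloid cells. COMMD10 is a subunit of a complex that sorts membrane proteins on endosomes. The LysM driver also acts in neutrophils and resident macrophages, and there was no group with the Cre and intact Commd10, so that effects of the Cre and of COMMD10 loss cannot be told apart.

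Autophagy wraps part of the cytoplasm in a double membrane and delivers it to the lysosome. The ULK1 kinase starts the process, the lipid kinase complex built on Beclin 1 marks the site, WIPI proteins read that lipid, and ATG8 proteins (the LC3 and GABARAP families) are coupled to the growing membrane. Receptors such as p62, the product of Sqstm1, tie ubiquitinated cargo to ATG8 proteins. BNIP3 and its paralog NIX, the product of Bnip3l, sit on the outer mitochondrial membrane and bind ATG8 proteins directly, which directs mitochondria into the pathway, and both genes are known targets of the hypoxia-inducible factor HIF-1. In monocytes and macrophages the pathway is known for the removal of damaged mitochondria and for restraint of inflammasome activity. Message levels do not measure how much material the pathway degrades.

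Total counts ranged from 13327665 to 15759224 per animal. The targeted gene Commd10 was at 27.3 ± 2.19 CPM (SD, n = 4) in control mice and had fallen to 14.2 ± 3.73 CPM (SD, n = 4) in the deficient ones (log2 fold change -0.94, SE 0.18, adjusted p = 0.0110, or 0.290 without the label set in the model, edgeR quasi-likelihood), where CPM is the count divided by the scaled library size, and the cre transgene had 37 to 122 counts in deficient animals and 0 in each control. Lyz2, read as the check of the Cre locus, was at 12708 ± 3409 CPM in control and 4023 ± 3086 CPM in deficient mice (SD, n = 4 each). Its log2 fold change was -1.95 (SE 0.57, adjusted p = 0.0491, or 0.402 without the label set in the model, edgeR quasi-likelihood). All 8 of 8 markers listed for Ly6Chi monocytes were present, with 2 of 8 called higher and 2 lower in deficient mice. By the spelling of their names the mice fall into label sets of 4. The lower-numbered set holds control replicates 2 and 3 with deficient replicates 5 and 6, and the higher-numbered set holds control replicates 10 and 11 with deficient replicates 12 and 13. What parts the sets is not stated. Each set holds 2 animals of each genotype, so the label set could enter the model as a term. That term was chosen with earlier results of these data known. In the model that holds it, 4496 genes, 36.9% of those tested, differed between the sets. Every marker call in this paragraph was made with that term included. For comparison, 6.59% of all tested genes were called higher in deficient mice and 7.35% lower, 13.9% in either direction (adjusted p under 0.05, edgeR quasi-likelihood). When the term was left out, 0% of tested genes were called, so the marker calls depend on it. Marker sums moved with genotype. In every deficient animal the Ly6Chi monocyte sum lay under both controls of its set, at 7675 and 7937 CPM for controls 2 and 3 against 6903 and 6697 CPM for deficient replicates 5 and 6, and at 6571 and 6118 CPM for controls 10 and 11 against 5585 and 5835 CPM for deficient replicates 12 and 13. Summed neutrophil markers (12 of 14 listed genes in the table, Ly6g and Camp without a row, 4 of 8 tested called higher) ranged from 420.0 to 639 CPM in the control group and from 684 to 935 CPM in the deficient group. Among them S100a8 ranged from 3.12 to 19.8 CPM in controls and from 35.1 to 135 CPM in deficient animals. Lcn2 ranged from 16.6 to 47.7 and from 87.9 to 210 CPM, and Mmp8 from 74.8 to 150 and from 169 to 242 CPM. Csf3r did not rise, at 322 to 404 and 251 to 360 CPM. Mpo, Elane, Ltf, Ngp and Retnlg stayed below 2 CPM in every animal. Summed hepatocyte markers (13 of 13, 6 of 12 tested lower) were at 142 to 395 and 107 to 149 CPM, and summed Kupffer cell markers (10 of 10, 5 of 9 tested lower) at 1143 to 2089 and 787 to 1138 CPM, with Clec4f, Vsig4 and Timd4 at 2.58 CPM or less. Most of the Kupffer cell sum came from C1qa, C1qb and C1qc, with C1qb at 619 to 1044 CPM in controls and 447 to 606 CPM in deficient animals. Marco (0.976 to 5.26 and 3.35 to 5.03 CPM) and Cd163 (2.73 to 4.73 and 2.16 to 5.65 CPM) overlapped between the genotypes. Summed dendritic cell markers (8 of 8, 3 of 7 tested lower) were at 17.4 to 29.9 and 9.42 to 15.1 CPM. The part of these differences in the results below was not tested. In bulk samples fewer cells of a type and less RNA per cell cannot be told apart.

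Per length of exon, the ATG8 gene Gabarap and the cargo receptor gene Sqstm1 were far above the other members. Gabarap stood at 391 ± 34.6 CPM per kb (SD, n = 8), higher than 99.2% of tested genes with a length, and Sqstm1 at 135 ± 23.0 CPM per kb (SD, n = 8), higher than 97.3%. Gabarapl1 followed at 21.0 ± 5.23 CPM per kb (SD, n = 8). These 3 genes did not overlap with the next lower one in any of the 8 animals. Becn1 (14.7 ± 0.670), Bnip3l (13.9 ± 2.01), Map1lc3a (11.1 ± 1.60), Map1lc3b (9.67 ± 1.52), Bnip3 (8.66 ± 6.95) and Ulk1 (5.83 ± 1.38 CPM per kb, SD, n = 8) came next, and each overlapped with its neighbour in that order. Wipi1 was lowest at 1.81 ± 0.363 CPM per kb (SD, n = 8) and did not overlap with Ulk1. The length is the union of all annotated exons, so a gene with long alternative ends, such as Map1lc3b at 7.517 kb, is placed lower by this scale than by its main transcript.

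**Figure D1:**
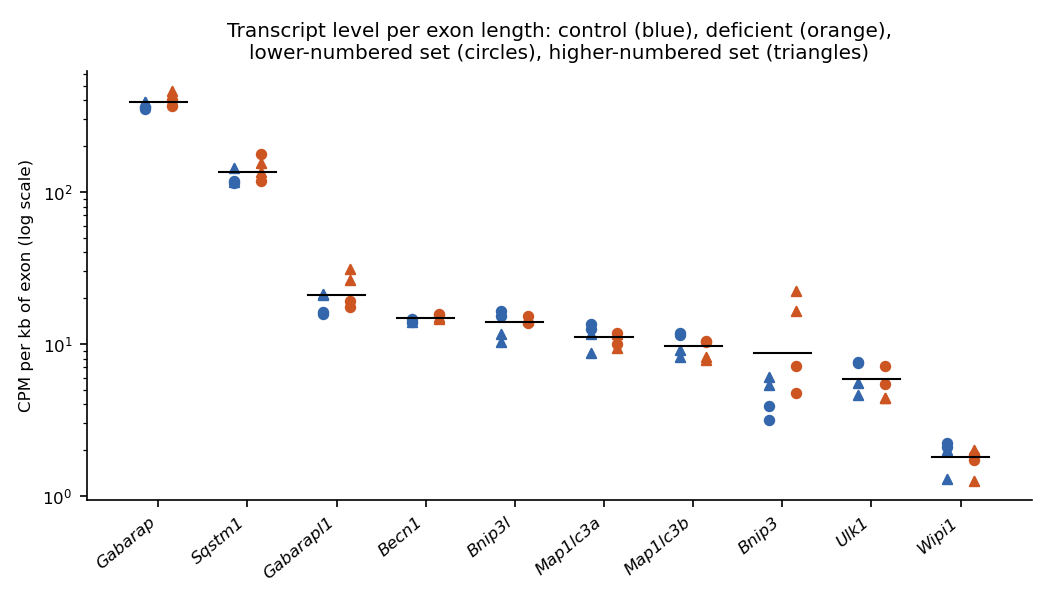
Level of each member in CPM per kb of exon (log axis), 1 point per animal and a bar at the mean of 8. Gabarap and Sqstm1 lie above all other members, and Bnip3 spreads from 3.17 to 22.4 CPM per kb.

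The 2 members that rose in deficient monocytes were Bnip3 and, by a smaller amount, Gabarapl1. In the model that holds the label set, 2 of 10 members were called higher and 0 lower at an adjusted p under 0.05 (edgeR quasi-likelihood test, Benjamini-Hochberg adjustment over all tested genes), where 6.59% of all tested genes were higher, 7.35% lower and 13.9% called in either direction. A count of 2 in 10 is near that background. The median log2 fold change was 0.11 over the members and -0.0003 over all tested genes. Without the label set in the model 0 of 10 members and 0% of all genes were called, with 1 of 10 members and 12.5% of genes at an unadjusted p under 0.05. DESeq2 without the label set also called 0 members. In 5 of 10 members the deficient animals did not overlap with the controls inside either set, in the same direction (Bnip3, Gabarap, Gabarapl1 and Becn1 higher, Ulk1 lower), which held for 27.3% of all tested genes (13.7% higher, 13.6% lower). Across all 8 animals the groups separated in 0 of 10 members and in 7.02% of tested genes.

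**Figure D2:**
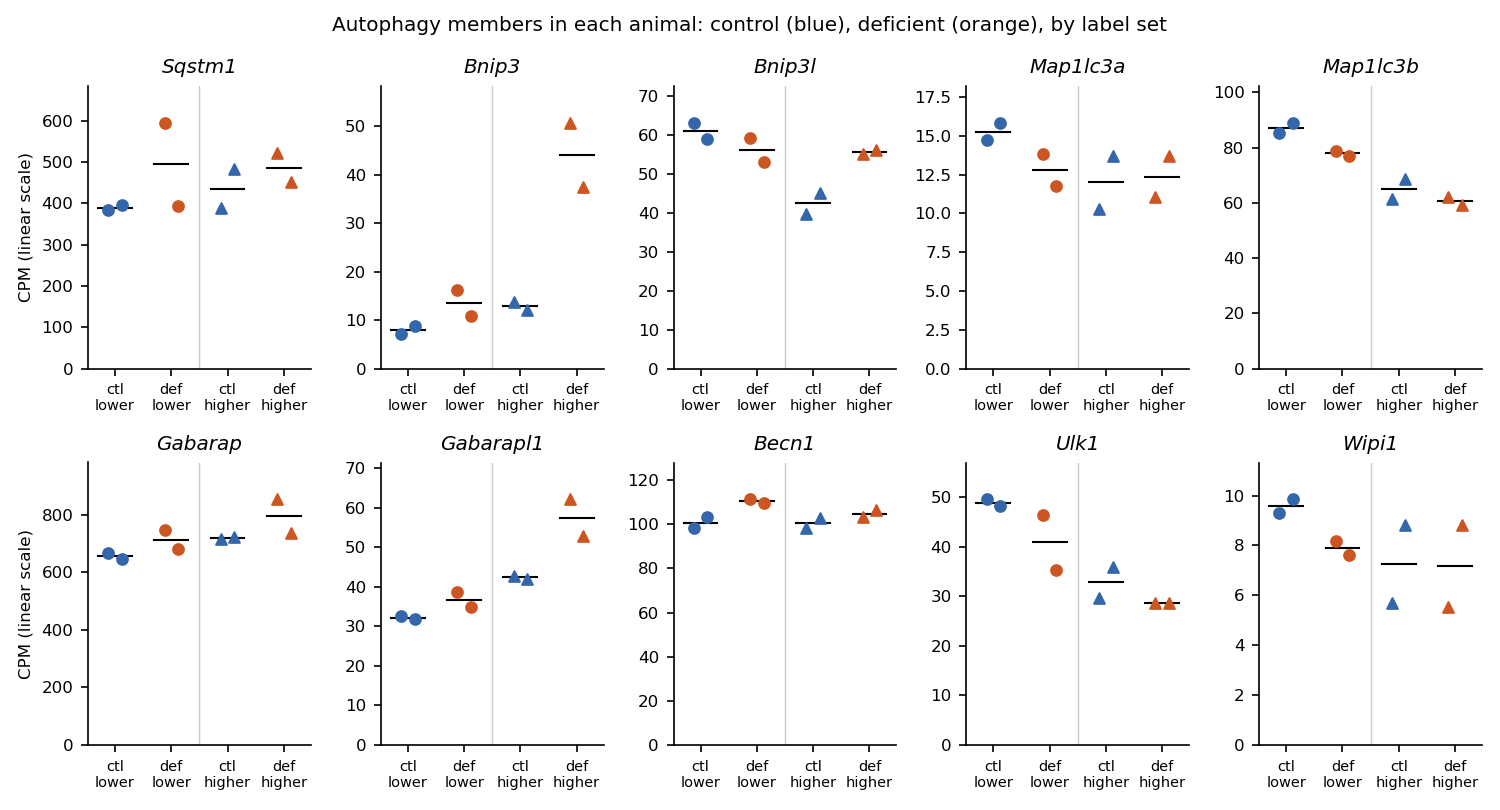
CPM of each member in each animal (linear axes from 0), controls in blue and deficient animals in orange, with the lower-numbered set left of the line and the higher-numbered set right of it. Bars are means of the 2 animals. Bnip3 reaches 50.7 and 37.4 CPM in the deficient animals of the higher-numbered set, and lies at or below 16.2 CPM elsewhere.

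Bnip3 (ENSMUSG00000078566, GRCm38 chromosome 7, 138890836 to 138909519) encodes a mitochondrial outer membrane protein that recruits ATG8 proteins. In the lower-numbered set it was at 7.19 CPM in control 2 and 8.85 in control 3, against 16.2 CPM in deficient replicate 5 and 10.8 in replicate 6. In the higher-numbered set it was at 13.7 CPM in control 10 and 12.1 in control 11, against 50.7 CPM in deficient replicate 12 and 37.4 in replicate 13. Deficient animals exceeded the controls of their own set in both sets, but across sets deficient replicate 6 lay below controls 10 and 11. The group levels were 10.5 ± 2.98 CPM (SD, n = 4) without the deletion and 28.8 ± 18.6 CPM (SD, n = 4) with it. The rise was 2.48-fold (95% interval 1.75 to 3.52) or 1.31 on the log2 scale with an SE of 0.23 (adjusted p = 0.00815, edgeR quasi-likelihood, Benjamini-Hochberg). It was 1.69-fold in the lower-numbered set (adjusted p = 0.172, 0.657% of genes called) and 3.41-fold in the higher-numbered set (adjusted p = 0.00317, 8.47% of genes called, edgeR quasi-likelihood with a term for each set). That gap between the sets did not pass its own test (interaction 1.02 on the log2 scale, adjusted p = 0.557, edgeR quasi-likelihood, 0.0411% of genes called). Without the label set in the model the log2 fold change was 1.46 with an adjusted p of 0.327 (edgeR quasi-likelihood), so the call rests on that term. Of the 75-base stretches of annotated Bnip3 transcripts, 34.4% also occur in transcripts of other genes, and 504 of its 2265 exon bases lie opposite Gm45507, so its counts are uncertain where reads were shared. Strand is not given in the sources used here.

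Bnip3l (ENSMUSG00000022051, chromosome 14, 66985239 to 67008877), whose product NIX is known from the clearance of mitochondria in maturing red cells, was the more abundant of the pair. It was at 63.0 CPM in control 2 and 58.9 in control 3, against 59.2 CPM in deficient replicate 5 and 53.0 in replicate 6. In the higher-numbered set it was at 39.7 CPM in control 10 and 45.0 in control 11, against 55.0 CPM in deficient replicate 12 and 56.1 in replicate 13. The deficient animals therefore overlapped with the controls in the lower-numbered set and lay above them in the higher-numbered one. Over both sets the log2 fold change was 0.13 (SE 0.10, 95% interval -0.10 to 0.37, adjusted p = 0.425, edgeR quasi-likelihood). In the fit with a term for each set it was -0.12 (SE 0.09) in the lower-numbered set and 0.39 (SE 0.09, adjusted p = 0.0399, edgeR quasi-likelihood) in the higher-numbered one. The difference between the sets did not pass (adjusted p = 0.446, edgeR quasi-likelihood). The count ratio of Bnip3 to Bnip3l, on the scale of CPM, was 0.114 to 0.346 in controls, 0.203 and 0.274 in the deficient animals of the lower-numbered set, and 0.921 and 0.666 in those of the higher-numbered set. In its transcripts 16.9% of 75-base stretches occur in other genes, among them Bnip3l-ps, which had 1 to 11 counts per animal. Summed markers of erythroid cells, which express Bnip3l, moved with the label set. They were at 2.24 and 1.60 CPM for controls 2 and 3 and 3.82 and 1.94 CPM for deficient replicates 5 and 6, below the 7.74 and 5.74 CPM of controls 10 and 11 and the 6.99 and 7.03 CPM of deficient replicates 12 and 13. Their part in the Bnip3l values was not tested.

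Gabarapl1 (ENSMUSG00000030161, chromosome 6, 129533160 to 129542346) encodes an ATG8 protein of the GABARAP branch. It was at 32.6 CPM in control 2 and 31.8 in control 3, against 38.6 CPM in deficient replicate 5 and 34.9 in replicate 6. In the higher-numbered set control 10 had 42.7 and control 11 had 42.1 CPM, against 62.1 CPM in deficient replicate 12 and 52.8 in replicate 13. Deficient animals were above the controls of their set in both sets, while those of the lower-numbered set lay below controls 10 and 11. The rise was 1.25-fold (95% interval 1.10 to 1.41) or 0.32 on the log2 scale with an SE of 0.08 (adjusted p = 0.0297, edgeR quasi-likelihood), with 0.19 inside the lower-numbered set and 0.44 inside the other. The call was lost without control 3 (adjusted p = 0.0546), control 10 (0.0678), control 11 (0.0899), deficient replicate 12 (0.0776) or deficient replicate 13 (0.0519, edgeR quasi-likelihood). Without the label set in the model its adjusted p was 0.476 (edgeR quasi-likelihood). Opposite-strand 1700101I11Rik, not analysed here, overlaps 570 of its 2013 exon bases, and 20.5% of its 75-base stretches occur in other transcripts.

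The promoters of the 4 members that differed between the genotypes or, as given further on, between the label sets are shown because, between the sets, Bnip3 and Gabarapl1 were higher where Map1lc3b and Ulk1 were lower. RefSeq promoter windows (build GRCm38.p6, 250 bases before to 50 after the start site) were matched for 7 of the 10 members. Capitals mark matches on either strand to ACGTG or GCGTG, the core letters of hypoxia response elements, to CACGTG, the E-box core read by TFEB and its relatives, and to TGACNNNGC, the antioxidant response element read by NRF2. A CACGTG match contains ACGTG on both strands.
Bnip3, chr7:138909457-138909756, minus strand: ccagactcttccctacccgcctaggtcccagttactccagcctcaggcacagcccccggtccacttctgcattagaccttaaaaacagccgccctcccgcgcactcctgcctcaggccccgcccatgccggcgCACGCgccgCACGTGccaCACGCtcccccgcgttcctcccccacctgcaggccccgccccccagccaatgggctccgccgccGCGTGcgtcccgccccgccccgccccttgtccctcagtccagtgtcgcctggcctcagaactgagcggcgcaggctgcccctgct
Gabarapl1, chr6:129532942-129533241, plus strand: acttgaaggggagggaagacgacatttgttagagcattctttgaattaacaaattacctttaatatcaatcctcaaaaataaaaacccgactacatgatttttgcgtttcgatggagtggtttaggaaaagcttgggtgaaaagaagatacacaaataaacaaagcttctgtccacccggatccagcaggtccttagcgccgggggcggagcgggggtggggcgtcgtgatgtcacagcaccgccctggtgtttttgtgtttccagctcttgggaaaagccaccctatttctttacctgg
Map1lc3b, chr8:121590188-121590487, plus strand: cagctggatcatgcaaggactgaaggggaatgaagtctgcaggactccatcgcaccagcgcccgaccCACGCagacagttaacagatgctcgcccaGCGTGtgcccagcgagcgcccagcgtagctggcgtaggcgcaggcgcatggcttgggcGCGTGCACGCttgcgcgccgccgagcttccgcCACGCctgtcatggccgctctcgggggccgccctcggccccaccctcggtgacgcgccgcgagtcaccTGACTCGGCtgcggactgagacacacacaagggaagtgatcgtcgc
Ulk1, chr5:110810032-110810331, minus strand: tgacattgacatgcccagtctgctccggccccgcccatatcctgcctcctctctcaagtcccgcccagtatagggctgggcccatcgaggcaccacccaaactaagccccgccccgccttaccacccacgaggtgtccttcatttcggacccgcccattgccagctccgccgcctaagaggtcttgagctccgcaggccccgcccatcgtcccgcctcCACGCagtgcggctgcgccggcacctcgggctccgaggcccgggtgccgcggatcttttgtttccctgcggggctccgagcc
The Bnip3 window held 2 matches to ACGTG, both inside 1 CACGTG that begins 108 bases before the start site, and 3 matches to GCGTG. The Gabarapl1 window held none of the motifs. The Map1lc3b window held 5 matches to GCGTG and 1 to TGACNNNGC, and the Ulk1 window held 1 to GCGTG. Among 32851 RefSeq promoter windows of the same length, 19.6% hold ACGTG, 32.4% GCGTG, 43.8% either of these, 7.15% CACGTG and 12.4% TGACNNNGC. These matches describe letters in the windows only.

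The other ATG8 genes did not pass the test. Map1lc3b, which encodes LC3B, the usual marker of autophagosomes, was at 85.3 CPM in control 2 and 89.0 in control 3, against 78.8 in deficient replicate 5 and 76.9 in replicate 6, and in the other set at 61.5 in control 10 and 68.8 in control 11, against 62.0 in deficient replicate 12 and 59.1 in replicate 13. The genotypes separated in the lower-numbered set and overlapped in the higher-numbered one. The log2 fold change was -0.13 (SE 0.06, 95% interval -0.26 to -0.01, adjusted p = 0.138, edgeR quasi-likelihood). Map1lc3a, the LC3A gene, was at 10.3 to 15.8 CPM in controls and from 11.1 to 13.8 CPM where Commd10 was deleted, with a log2 fold change of -0.11 (SE 0.13, 95% interval -0.39 to 0.18). Gabarap was at 667, 646, 717 and 722 CPM for controls 2, 3, 10 and 11 and at 746, 680, 853 and 735 CPM for deficient replicates 5, 6, 12 and 13. Each deficient animal exceeded the controls of its set by a small margin, and the log2 fold change was 0.13 (SE 0.07, 95% interval -0.02 to 0.28, adjusted p = 0.215, edgeR quasi-likelihood). The ratio of Gabarapl1 to Map1lc3b, on the scale of CPM, was 0.382 and 0.358 in controls 2 and 3, 0.490 and 0.454 in deficient replicates 5 and 6, 0.694 and 0.612 in controls 10 and 11, and 1.001 and 0.893 in deficient replicates 12 and 13. Each deficient animal had a higher ratio than both controls of its set. Gabarapl1 alone already separated the genotypes in both sets, so the ratio is no further support.

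**Figure D3:**
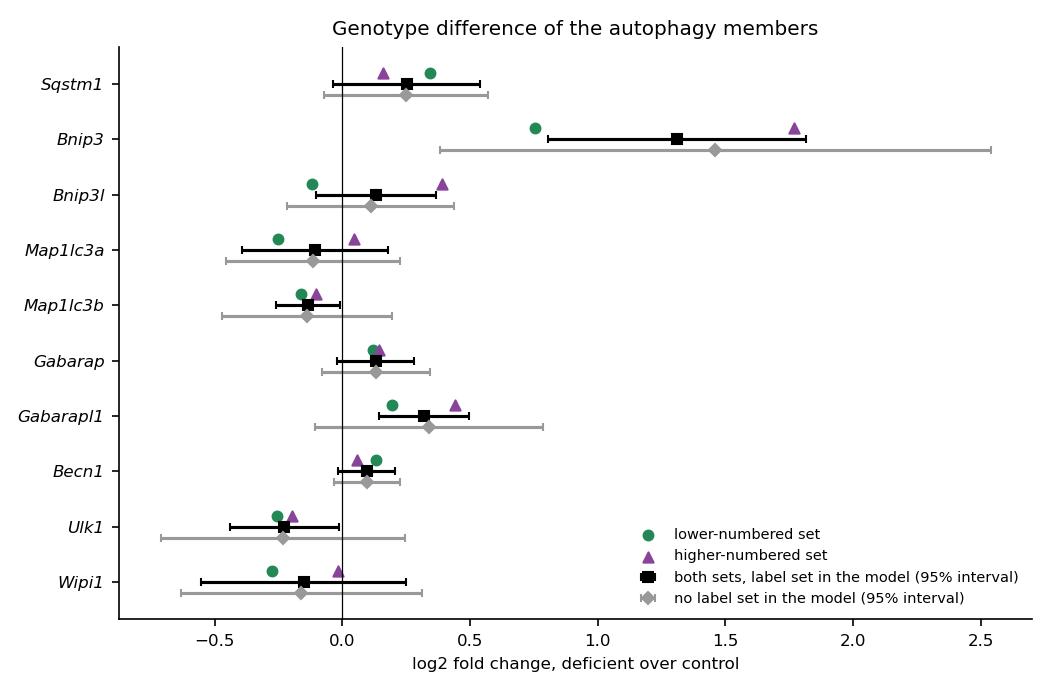
Log2 fold change of each member, deficient over control, with the 95% interval with the label set in the model (black) and without it (grey), and the estimate in each set (green circles, purple triangles). Bnip3 stands at 1.31, Gabarapl1 at 0.32 and the other 8 members lie between -0.23 and 0.25.

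Sqstm1 (ENSMUSG00000015837, chromosome 11, 50199366 to 50210827) encodes p62, which is itself degraded by autophagy and is a known target of NRF2. It was at 384, 395, 388 and 483 CPM for controls 2, 3, 10 and 11. It was at 595, 394, 522 and 452 CPM in deficient replicates 5, 6, 12 and 13. The groups overlapped within both sets, and deficient replicate 5 was the highest animal while deficient replicate 6, of the same set, was level with controls 2 and 3. The log2 fold change of 0.25 (SE 0.13, 95% interval -0.04 to 0.54) did not pass (adjusted p = 0.214, edgeR quasi-likelihood), and a rise above 1.45-fold lies outside that interval. The opposite-strand gene Mrnip, with 1 to 12 counts per animal, overlaps 580 of the 3356 Sqstm1 exon bases. The Sqstm1 counts are therefore uncertain where reads were shared.

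The genes of autophagosome formation differed little between the genotypes. Becn1 was the steadiest member, at 98.1 to 103 CPM in controls and from 103 to 111 CPM where Commd10 was deleted, a log2 fold change of 0.10 (SE 0.05, 95% interval -0.02 to 0.21, adjusted p = 0.228, edgeR quasi-likelihood). Its coefficient of variation over the 8 animals was 4.55%, against 80.2% for Bnip3. Opposite-strand Cntd1, with 1 to 7 counts per animal, overlaps 3104 of its 7065 exon bases. Ulk1, the initiating kinase gene, was at 49.5 CPM in control 2 and 48.2 in control 3, against 46.4 in deficient replicate 5 and 35.4 in replicate 6, and in the other set at 29.7 in control 10 and 36.0 in control 11, against 28.6 in deficient replicate 12 and 28.7 in replicate 13. Each deficient animal lay below the controls of its set, and the log2 fold change of -0.23 (SE 0.09, 95% interval -0.44 to -0.01) did not pass (adjusted p = 0.139, edgeR quasi-likelihood). Wipi1, which binds the lipid made by the Beclin 1 complex, was the least abundant member, at 5.71 to 9.85 CPM in controls and from 5.54 to 8.81 CPM where Commd10 was deleted. Its log2 fold change of -0.15 (SE 0.18) had a wide interval, from -0.55 to 0.25.

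Between the label sets 4 of 10 members differed, where 36.9% of all tested genes did (18.6% higher and 18.3% lower in the higher-numbered set), so the share is near the background. Bnip3 was higher in the higher-numbered set by 1.25 (log2, SE 0.23, adjusted p = 0.00260) and Gabarapl1 by 0.52 (SE 0.08, adjusted p = 0.00117, edgeR quasi-likelihood). Map1lc3b was lower there, at -0.39 (SE 0.06, adjusted p = 8.88e-04), and so was Ulk1, at -0.54 (SE 0.09, adjusted p = 0.00218, edgeR quasi-likelihood). Each of these 4 genes thus differed between the sets in the same direction in which its genotype difference pointed, although the genotype difference of Map1lc3b and Ulk1 did not pass. The share of all tested genes with such agreement was not computed, so it is not read as particular to these members. The set difference was larger than the genotype difference in Gabarapl1 (0.52 against 0.32), Map1lc3b (-0.39 against -0.13) and Ulk1 (-0.54 against -0.23). In Bnip3 it was not (1.25 against 1.31). Ulk1 had means of 44.9 ± 6.47 CPM for lower-numbered animals and 30.7 ± 3.52 CPM for higher-numbered ones (SD, n = 4 each). Summed B cell markers, at 128 to 199.6 CPM in lower-numbered and 64.5 to 106 CPM in higher-numbered animals, and summed endothelial and stellate cell markers, at 25.1 to 75.2 and 129 to 198 CPM, also separated the sets. So did the Ly6Chi monocyte sum, at 6697 to 7937 and 5585 to 6571 CPM, and the erythroid sum, at 1.60 to 3.82 and 5.74 to 7.74 CPM. The part of these markers in the set differences was not tested. No genotype difference of a member was shown to differ between the sets, with 0 of 10 called and 2 of 10 at an unadjusted p under 0.05, beside 6.71% of all tested genes (edgeR quasi-likelihood interaction test), and DESeq2 and limma voom called 0 as well.

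The wider autophagy list, 93 genes from initiation to lysosome fusion and its upstream control, was called at a share near that of all genes. Of 89 tested genes, members included, 9 rose and 5 fell, 15.7% against 13.9% of all tested genes (edgeR quasi-likelihood, label set in the model). Their median log2 fold change was 0.02, beside -0.0003 over all tested genes. The 95% interval lay within a 2-fold change either way for 87 of 89 genes, 97.8%, and for 86.7% of all tested genes. The 2 exceptions were Bnip3 and Atg9b, named after their values were seen. The other 4 listed genes were not analysed here. Without the label set in the model 0 of 89 were called and 13 had an unadjusted p under 0.05 (edgeR quasi-likelihood), and DESeq2, also without it, called 1, Tax1bp1.

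**Figure D4:**
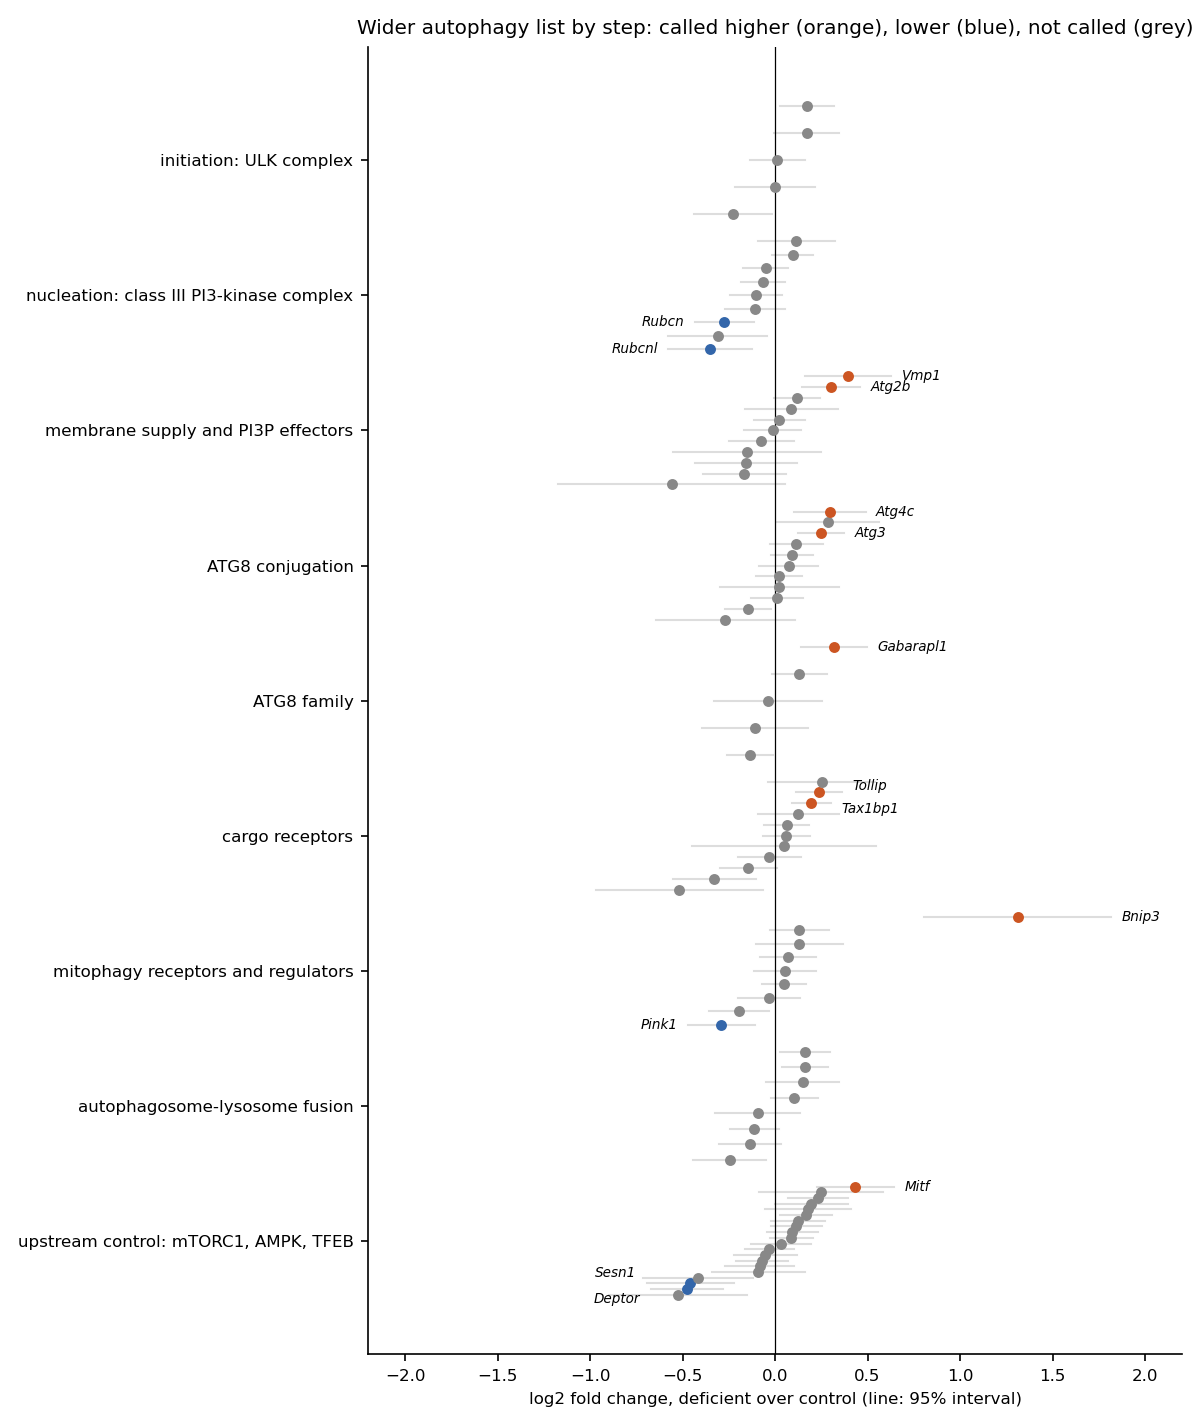
Log2 fold change, deficient over control, of 89 genes ordered by the step of autophagy they serve, with 95% intervals. Called genes are coloured and named, and apart from Bnip3 at 1.31 they lie between -0.48 and 0.43.

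The counts of each step that follow stand beside 6.59% of all tested genes called higher and 7.35% lower, and with so few genes a step none is read as particular to it. At the mitochondrion, Bnip3 rose and Pink1 fell. Pink1, the kinase that marks depolarised mitochondria for removal, went from 38.9 ± 11.3 to 31.6 ± 8.60 CPM (SD, n = 4 for both groups), which is -0.29 on the log2 scale with an SE of 0.08 (adjusted p = 0.0432, edgeR quasi-likelihood). Its call was kept in 1 of 8 fits that left out an animal. The other 7 tested genes of that list were not called. In the ATG8 conjugation list 2 of 11 rose and 0 fell. Atg3, the enzyme that transfers ATG8 proteins to lipid, rose from 122 ± 8.64 to 145 ± 14.8 CPM (SD, n = 4 each, log2 fold change 0.25, SE 0.06, adjusted p = 0.0196, edgeR quasi-likelihood). Atg4c, a protease that trims ATG8 proteins, rose by 0.30 (SE 0.09, adjusted p = 0.0495, edgeR quasi-likelihood), with 0.11 in the lower-numbered set and 0.49 in the other. The Atg4c call was kept in 1 of 8 fits that left out an animal. With another test, scaling or filter it was kept in 1 of 6. Among 11 cargo receptors, 2 rose, and both were small changes. Tax1bp1 was at 150 to 152 CPM in controls and from 169 to 178 CPM where Commd10 was deleted, with no overlap between the groups in either set or across them. Such separation over all 8 animals held for 7.02% of tested genes, and also for Atg2b and Atg4c (higher) and Usp30 (lower, not called). The Tax1bp1 rise was 0.20 on the log2 scale with an SE of 0.05 (adjusted p = 0.0263, edgeR quasi-likelihood). Its call was kept in 1 of 8 fits that left out an animal. Tollip rose by 0.24 (SE 0.06). Gabarapl2, the remaining ATG8 gene, was at -0.04 (SE 0.13).

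In membrane supply 2 of 11 rose and 0 fell, the lipid transfer gene Atg2b (0.30, SE 0.07) and Vmp1 (0.40, SE 0.10), whose product acts at contacts of the endoplasmic reticulum with the forming membrane. In the Beclin 1 complex list 0 of 9 rose and 2 fell. These were Rubcn (-0.28, SE 0.07), whose product Rubicon inhibits autophagosome maturation, and its relative Rubcnl (-0.35, SE 0.10), whose product promotes it. None of 5 ULK complex genes was called, with 2 at an unadjusted p under 0.05, Atg13 at 0.17 (SE 0.07) and Ulk1 at -0.23. None of 8 fusion genes was called either, with 3 at an unadjusted p under 0.05, Snap29 at 0.16 (SE 0.06), Ykt6 at 0.16 (SE 0.06) and Stx17 at -0.24 (SE 0.09), the last pair named after their values were seen. Both counts stand beside 30.9% of all tested genes at an unadjusted p under 0.05 in the same model (edgeR quasi-likelihood), and are near that share. Of 20 upstream genes 1 rose and 2 fell. The MiT/TFE transcription factor gene Mitf rose from 69.2 ± 25.7 to 94.5 ± 37.0 CPM (SD, n = 4 each, log2 fold change 0.43, SE 0.09, adjusted p = 0.0178, edgeR quasi-likelihood). Deptor, an inhibitor of mTOR, fell from 29.0 ± 5.20 to 20.9 ± 4.94 CPM (SD, n = 4 each, -0.48, SE 0.09, adjusted p = 0.00954, edgeR quasi-likelihood), and the mTORC1 inhibitor gene Sesn1 fell by 0.46 (SE 0.10). Deptor and Bnip3 were called in 8 of 8 fits that left out an animal and Mitf in 7, while the other 11 were called in 1 to 5 of 8. The label set difference was larger than the genotype difference in Mitf (0.94 against 0.43, log2), Pink1 (-0.68 against -0.29), Vmp1 (0.62 against 0.40) and Sesn1 (-0.63 against -0.46). It was slightly larger in Rubcn, Tollip and Deptor, and smaller in Atg2b, Atg3, Atg4c, Rubcnl and Tax1bp1. Summed neutrophil markers were higher and summed hepatocyte markers mostly lower in the same deficient animals, as given above.

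The tested genes whose log2 CPM followed Bnip3 most closely over the 8 animals were Mthfd1l, an enzyme gene of mitochondrial folate metabolism (Pearson r = 0.995), Lrpap1 (0.991) and the lactate dehydrogenase gene Ldha (0.991). For Gabarapl1 they were Mindy1 (0.992), Iqsec1 (0.991) and the activin subunit gene Inhba (0.991). These values describe 8 animals in label sets that stand apart, and each r includes the difference between the sets. No test was made of them.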

How the data were processed

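Counts of reads per gene were deposited for each animal, together with a normalised signal in which, judged from the deposited values, every count is scaled by a single library factor. The signal was not tested. Tools named per the submitters' processing notes are STAR 2.7.3a, cutadapt, DESeq2 1.26.0 and HTSeq 0.12.4 on GRCm38, in no stated order. Genes passed filterByExpr of edgeR 4.0.16 (R 4.3.3, minimum count 10, minimum total 15, grouped by genotype) in 12178 of 15336 cases, and the cre row was set aside. Libraries were scaled by TMM, and the quasi-likelihood F-test was run with genotype and label set as terms, two-sided. SE is the log2 fold change divided by the square root of F, and log2 CPM used a prior count of 2. Separate animals are assumed from the labels. Exon lengths come from GENCODE M21. The code was tested on simulated counts.

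The members, the gene lists, the label set term and the tests were chosen with earlier results of these data known. Named were the 10 members, Commd10 and Lyz2, and up to 3 called genes per list by smallest p (or the first by p). For each member its 3 closest genes were also named, of which those of Bnip3 and Gabarapl1 are given. Alternatives were DESeq2 1.42.0, limma voom 3.58.1, other factors and filters, no label set, each set alone, and each animal left out.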

Additional observations from a re-analysis of the deposited data

Results flagged for a closer look

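In 50 groups of 4 animals (25 named genes in each genotype), 2 held a value far from the other 3, and chance flags about 1 in 20 groups. Sqstm1 in control 11, at 483 CPM, stood above the other controls at 384 to 395 CPM (gap over range 0.893). Rubcnl in control 10, at 18.5 CPM, stood below the other controls at 21.4 to 22.0 CPM (gap over range 0.830).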

How the results depend on the processing

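No paired analysis was possible because controls and deficient mice have no replicate number in common. The label set term decided the calls. Without it edgeR called 0 of all genes (1519 at an unadjusted p under 0.05), 0 members and 0 genes of the wider list, and DESeq2, added after seeing the data, called 158, 0 and 1. In the lower-numbered set alone 46 genes, 0 members (1 unadjusted) and 0 of the wider list (14 unadjusted) were called, and in the higher-numbered set alone 646, 1 (Bnip3) and 2. Each such fit has 2 animals a genotype. Leaving out 1 animal gave 697 to 1685 genes, 1 to 2 members, 2 to 11 genes of the wider list and 0 to 1 genes with a genotype by set interaction, against 1697, 2, 14 and 5. The lowest counts of the wider list came without deficient replicate 12 (2), control 11 (3) and control 2 (5), followed by control 3 and deficient replicate 13 (6 each) and control 10 and deficient replicate 6 (9 each). Interaction calls were 65 by DESeq2, 3 by limma voom and 1 with the stricter filter, none of them a member. Bnip3 was higher in 18 of 18 alternatives and called in 15, and between 1.11 and 1.495 (log2) when an animal was left out (adjusted p 0.00449 to 0.0291, edgeR). Bnip3l reversed in the lower-numbered set (-0.12) and Map1lc3a in the higher-numbered set (0.039). The other 8 members kept their direction in all 18 alternatives. Depth limits Wipi1 most, with 76 to 148 counts per animal. The cause of these changes was not tested.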
